A study of Mus musculus with 6 samples.

Results

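The microRNA miR-22 was followed through both mature products of its single hairpin, miR-22-3p and miR-22-5p (mmu-miR-22-3p and mmu-miR-22-5p in the tables), in the adult mouse hippocampus. These 2 rows, of 2035 mature miRNA rows in the count tables, were taken by name, and no row carried a name starting with Mir22hg, the host gene of the hairpin. Small RNA had been sequenced in 6 libraries of hippocampal total RNA from male C57BL/6 mice, 3 months old, and each library pooled RNA of 3 mice. In the Dicer1-ifKO group (3 libraries) the mice were Dicer1 flox/flox with the CaMKIIa-creERT2 transgene. In the WT group (3 libraries) they were Dicer1 flox/flox without it, so floxed Dicer1 alleles were common to both groups. All mice had received tamoxifen and were killed 3 weeks later. The CaMKIIa promoter drives the inducible recombinase in excitatory forebrain neurons, so that glia, blood vessels and inhibitory neurons of the dissected tissue keep intact Dicer1. In such bulk RNA, fewer cells of a type and less RNA per cell cannot be told apart.

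A miRNA is cut from a primary transcript as a hairpin by Drosha and from the hairpin by Dicer, which leaves a short duplex of the 5p and the 3p arm. An Argonaute protein keeps mainly a single strand of that duplex, the guide, and the other strand is usually degraded. miR-22 is found in many tissues, its 3p arm being the usual guide, and it has been studied in heart muscle, in blood cells and, in models of Huntington's disease, as a protective miRNA of neurons. Its hairpin lies in an exon of a long noncoding RNA.

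The sequences are shown because the arms differ so much in abundance although they come from the same duplex. The Mir22 hairpin of 95 nt occupies 75463716 to 75463810 on the plus strand of chromosome 11 (GRCm38), within exon 2 of both annotated Mir22hg transcripts and exon 2 of a transcript of the overlapping protein-coding gene Tlcd2 in GENCODE M21. In the first sequence the capitals mark the 5p and then the 3p arm, and in the other sequences the seed, bases 2 to 8, which pairs with target RNAs. All are from RefSeq on GRCm38.p6, 5′ to 3′, and both member rows matched its coordinates.
Mir22 hairpin: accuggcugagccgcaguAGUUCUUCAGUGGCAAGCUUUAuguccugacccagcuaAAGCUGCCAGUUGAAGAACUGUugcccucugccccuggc
miR-22-3p: aAGCUGCCaguugaagaacugu
miR-22-5p: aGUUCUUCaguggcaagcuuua
Both arms are 22 nt long, with a GC content of 45.5% for miR-22-3p and 40.9% for miR-22-5p. In the minimum free energy fold of the hairpin, 19 pairs joined the arms, and all 7 seed bases of each arm were paired to the other arm. Neither seed was shared by another of the 1679 mature mouse miRNA names in the RefSeq table. Among these names, the counts of each arm thus stand for a seed of their own. The counts cover 1900 mature names, and those absent from RefSeq were not searched.

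The targeted gene gave no check of the genotype labels. The Dicer1 span held 37, 32 and 35 counts in Dicer1-ifKO replicates 1, 2 and 3, against 45, 33 and 47 in WT replicates 1, 2 and 3. These are fragments over the whole gene and cannot resolve a deleted exon. With repeated rows included, all features summed to 55101387 to 77428956 counts in Dicer1-ifKO libraries and 63797625 to 74809070 in WT libraries. Before any scaling for such totals, mature miRNA rows held 2318205 to 2739366 counts in Dicer1-ifKO libraries and 2724752 to 3179363 in WT libraries. As defining miRNAs of neural tissue, miR-124-3p, miR-9-5p, miR-128-3p and miR-138-5p together took 4.79% to 5.55% of these counts in Dicer1-ifKO libraries and 4.92% to 5.53% in WT libraries. The sum hides opposite differences. Of these, miR-128-3p had a lower share in Dicer1-ifKO (2.01% to 2.09%) than in WT (2.34% to 2.55%) without overlap, as had 22.5% of the 546 tested miRNA rows. The other names overlapped, with mean shares higher in Dicer1-ifKO than in WT for miR-9-5p (1.935% against 1.639%), miR-124-3p (0.658% against 0.5752%) and miR-138-5p (0.6043% against 0.5877%).

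miR-22-3p was among the most abundant miRNAs of the hippocampus in both genotypes, and its share of the miRNA counts hardly varied between libraries. The row held 137842, 161744 and 144249 counts in Dicer1-ifKO replicates 1, 2 and 3, against 157211, 162490 and 189782 in WT replicates 1, 2 and 3. As a share of all mature miRNA counts this was 5.95%, 5.90% and 6.05% in Dicer1-ifKO, against 5.77%, 5.62% and 5.97% in WT. The groups overlapped, since WT replicate 3 lay above 2 of the Dicer1-ifKO libraries. The mean share was 5.97% ± 0.0740 in Dicer1-ifKO and 5.79% ± 0.174 in WT (SD, n = 3 each), a difference of 0.179 percentage points with a two-sided exact permutation p of 0.3. With 3 against 3 libraries no such test can give a p below 0.1.

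For the CPM scale, counts were divided by the TMM-scaled total of a library over all features, after repeated rows were removed. On it the level of miR-22-3p was 3319, 3036 and 3069 in Dicer1-ifKO replicates 1, 2 and 3, against 3208, 3393 and 4082 in WT replicates 1, 2 and 3. WT replicate 3 was the highest library, and WT replicate 1 lay below Dicer1-ifKO replicate 1. Of the 546 tested miRNA rows, 33.9% had lower and 2.01% higher CPM in Dicer1-ifKO without overlap. The mean level of miR-22-3p was 3142 ± 155 CPM in Dicer1-ifKO and 3561 ± 461 CPM in WT (SD, n = 3 each). Its log2 change was -0.18 ± 0.13 (SE), with a 95% interval from -0.46 to 0.10 and an adjusted p of 0.88 over 6539 tested features in edgeR's quasi-likelihood test. Of the tested miRNA rows, 6.59% were called at an adjusted p of 0.05, 36 lower and 0 higher, and 57.0% had a log2 change below that of miR-22-3p. The median log2 change of the tested miRNA rows was -0.24, and that of all tested features -0.05. Left out in turn, no library made miR-22-3p pass. Its log2 change was -0.03 without WT replicate 3. Without WT replicate 1 it was -0.26, with a 95% interval from -0.504 to -0.006 (edgeR adjusted p = 0.51).

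The direction of the miR-22-3p change depended on what it was scaled to. When the miRNA rows alone set the TMM scaling, which moved the median log2 change of all tested features from -0.05 to 0.19, that of miR-22-3p was 0.07 (edgeR adjusted p = 0.88). The difference in share, also positive, has the same sign. With that scaling 8 miRNA rows were called lower and 0 higher. A separate fit of the miRNA rows alone gave miR-22-3p a log2 change of 0.07 too, and called 36 miRNA rows lower and 11 higher. On either scale the miR-22-3p difference was within the spread between libraries.

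**Figure D1:**
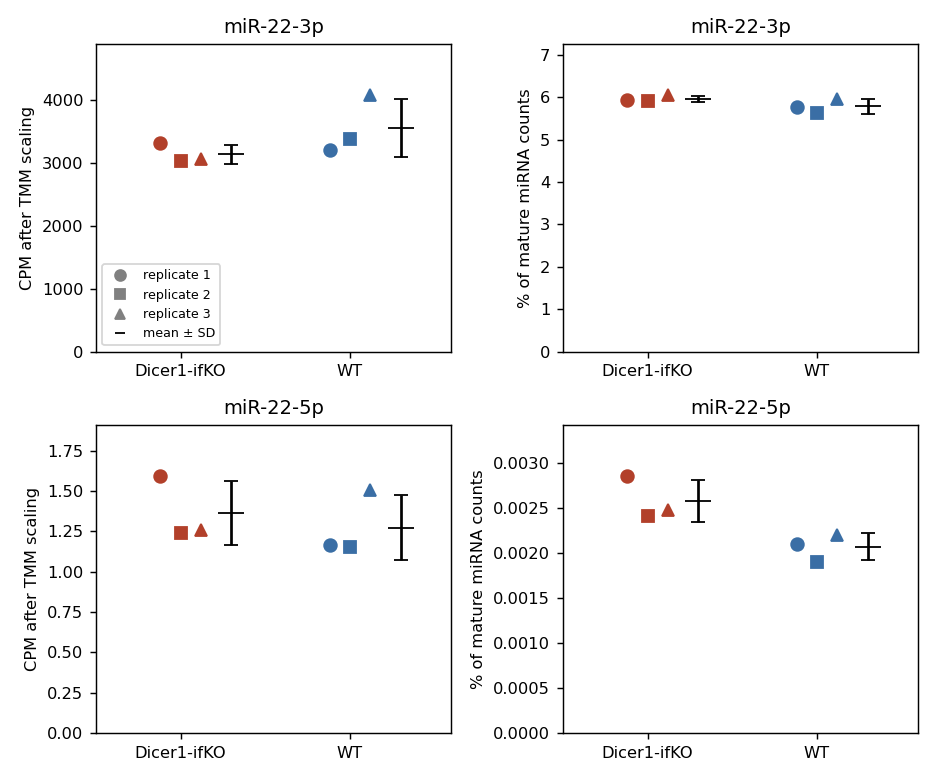
Levels of miR-22-3p (top) and miR-22-5p (bottom) in each library, in CPM after TMM scaling (left) and as a percentage of mature miRNA counts (right), with symbols for replicates and bars for the mean ± SD (n = 3). The genotypes overlap in 3 of the panels, and only the share of miR-22-5p separates them, with 0.00241% to 0.00285% in Dicer1-ifKO and 0.00190% to 0.00220% in WT.

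With the loci of each name summed, miR-22-3p was the third most abundant miRNA in every Dicer1-ifKO library and the fourth in every WT library. These are orders of read counts, for mature rows of 21 to 24 nt, and reads per molecule can differ between miRNAs. The names above it were miR-181a-5p, a brain-rich family member with 2 loci, at 19.6% ± 1.27 of miRNA counts in Dicer1-ifKO and 17.3% ± 0.524 in WT (SD, n = 3 each), and miR-26a-5p, also with 2 loci, at 9.88% ± 0.171 and 11.3% ± 0.452 in the same order. Just below it came miR-125a-5p, a homologue of lin-4 of Caenorhabditis elegans, at 4.40% ± 0.532 in Dicer1-ifKO and 4.69% ± 0.572 in WT, and miR-125b-5p at 3.91% ± 0.517 in Dicer1-ifKO and 3.46% ± 0.524 in WT. In all 6 libraries miR-22-3p lay above both miR-125 members and below miR-181a-5p and miR-26a-5p.

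The change of place came from miR-127-3p, a miRNA of the imprinted Dlk1-Dio3 region of chromosome 12. Its share was 4.78%, 4.81% and 5.43% in Dicer1-ifKO replicates 1, 2 and 3, against 6.62%, 6.94% and 6.17% in WT replicates 1, 2 and 3. There were 1.25, 1.23 and 1.12 counts of miR-22-3p for each count of miR-127-3p in Dicer1-ifKO replicates 1, 2 and 3, against 0.871, 0.810 and 0.968 in WT replicates 1, 2 and 3. miR-22-3p was thus the more abundant of the pair in 3 of 3 Dicer1-ifKO libraries and the less abundant in 3 of 3 WT libraries. A ratio within a library needs no scaling, and this ratio differed by 0.44 on the log2 scale (two-sided exact permutation p = 0.1, the smallest possible, and 0.26 after Benjamini-Hochberg adjustment over 13 ratios).

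miR-22-3p was set in this way against the other 9 of the 10 most abundant names and the 4 arms of miR-212 and miR-132, which lie on the same chromosome. In 5 of the 13 ratios, or 38.5%, the genotypes did not overlap, with miR-22-3p relatively higher in Dicer1-ifKO, and in none was it lower in Dicer1-ifKO without overlap. Over all 545 other tested miRNA rows, the ratio was higher in Dicer1-ifKO without overlap in 25.5% and lower in 9.91%. Besides miR-127-3p, these were the ratios to miR-26a-5p (log2 difference 0.24), the neuron-enriched miR-128-3p (0.29), miR-212-5p (0.30) and miR-212-3p (0.56). Each had the smallest possible exact permutation p of 0.1, and none passed after adjustment. Among the ratios that overlapped, the differences ran from -0.14 for miR-181a-5p to 0.20 for miR-132-3p. The ratios share the miR-22-3p counts and are not independent of each other.

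**Figure D2:**
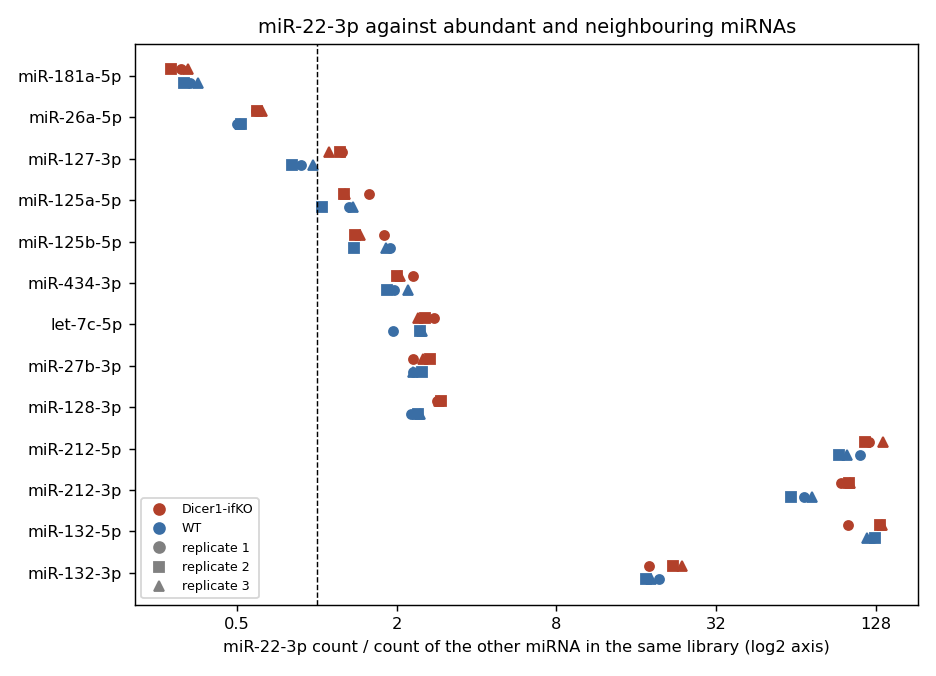
Count of miR-22-3p divided by that of another miRNA in the same library (log2 axis), for Dicer1-ifKO (upper row of each pair) and WT libraries, with symbols for replicates and a dashed line at equal counts. Against miR-127-3p the Dicer1-ifKO libraries lie right of the line, at 1.12 to 1.25, and the WT libraries left of it, at 0.810 to 0.968.

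Of the nearest tested miRNAs on chromosome 11, miR-212-3p was called lower in Dicer1-ifKO, while neither miR-22 arm was called. The miR-212 and miR-132 hairpins, whose miRNAs are induced by neuronal activity through CREB, lie 290 kb from Mir22. miR-212-3p had 1459, 1599 and 1415 counts in Dicer1-ifKO replicates 1, 2 and 3, against 2302, 2667 and 2588 in WT replicates 1, 2 and 3, without overlap. Its mean was 31.8 ± 2.93 CPM in Dicer1-ifKO and 52.8 ± 5.03 CPM in WT (SD, n = 3 each). edgeR gave a log2 change of -0.73 ± 0.15 (SE) with an adjusted p of 0.048, close to the threshold of 0.05. miR-212-3p was not followed through the alternative runs. The log2 change of miR-132-3p was -0.37 with an SE of 0.17 (edgeR adjusted p = 0.66). Neither this row nor miR-212-5p (-0.48) or miR-132-5p (-0.14) passed, although the CPM values of miR-212-5p did not overlap between the genotypes. The only other mature row within 500 kb, miR-3971, lies closer, at 87.7 kb. It held 1, 0 and 1 counts in Dicer1-ifKO libraries and 0 in each WT library, and was not tested.

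miR-22-5p was barely present. It had 66, 66 and 59 counts in Dicer1-ifKO replicates 1, 2 and 3, against 57, 55 and 70 in WT replicates 1, 2 and 3. In Dicer1-ifKO replicate 1 the exact 95% Poisson interval of the count ran from 51.0 to 84.0, and in WT replicate 2, the lowest library, from 41.4 to 71.6. Such intervals cover counting error only, since PCR copies are not separate molecules, and here they were wider than the whole range of the counts. By its WT share miR-22-5p was place 350 of 1154 names with a count, and place 330 in Dicer1-ifKO. Its own WT share was 0.00207% ± 0.000151 (SD, n = 3). The names next to it in that order, chosen for this place, were miR-1224-3p (0.00210% ± 0.000505), miR-28a-3p (0.00207% ± 0.000573), miR-429-3p (0.00204% ± 0.000753) and miR-135a-2-3p (0.00204% ± 0.000371).

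The level of miR-22-5p was 1.59, 1.24 and 1.26 CPM in Dicer1-ifKO replicates 1, 2 and 3, against 1.16, 1.15 and 1.51 CPM in WT replicates 1, 2 and 3. The groups overlapped, with WT replicate 3 above 2 Dicer1-ifKO libraries. The mean was 1.36 ± 0.198 CPM in Dicer1-ifKO and 1.27 ± 0.202 CPM in WT (SD, n = 3 each). In edgeR's fit miR-22-5p had a log2 change of 0.09, an SE of 0.21, a 95% interval from -0.35 to 0.54 and an adjusted p of 0.99. Without Dicer1-ifKO replicate 1 it was -0.03. Of the tested miRNA rows, 85.0% had a lower log2 change.

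As a share of mature miRNA counts, miR-22-5p did separate the genotypes. It took 0.00285%, 0.00241% and 0.00247% in Dicer1-ifKO replicates 1, 2 and 3, against 0.00209%, 0.00190% and 0.00220% in WT replicates 1, 2 and 3. Every Dicer1-ifKO library was above every WT library, although the exact binomial intervals of the nearest libraries overlapped (0.00186% to 0.00307% in Dicer1-ifKO replicate 2, 0.00172% to 0.00278% in WT replicate 3). The mean share was 0.00258% ± 0.000236 in Dicer1-ifKO and 0.00207% ± 0.000151 in WT (SD, n = 3 each; two-sided exact permutation p = 0.1, the smallest possible). Of the 546 tested miRNA rows, 11.0% were higher in share without overlap and 22.5% lower.

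The arm ratio of miR-22 was extreme in both genotypes. There were 2089, 2451 and 2445 counts of miR-22-3p for each count of miR-22-5p in Dicer1-ifKO replicates 1, 2 and 3, against 2758, 2954 and 2711 in WT replicates 1, 2 and 3. WT libraries were the higher, with no overlap between the genotypes. Among 120 hairpins at a single locus with a mean of at least 10 counts in each arm, whose rows share no place with another miRNA row, miR-22 had the second highest WT ratio of 3p over 5p, with a mean log2 ratio of 11.45. The hairpin above it was miR-92b (11.53), with a mean of 14.7 counts in its 5p arm, and those below it were miR-29a (11.25) and miR-381 (10.16). In 56 of the 120 hairpins the 3p arm was the more abundant in WT, and the median imbalance, in either direction, was 6.01-fold. Where both arms had a mean of at least 50 counts (77 hairpins), miR-22 came first. The WT libraries of miR-92b spanned 11.08 to 11.89 and those of miR-29a 10.78 to 11.52, so the order of these hairpins and miR-22 (11.40 to 11.53) was within the spread between libraries.

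The imbalance was smaller in Dicer1-ifKO. This difference rests on the same few miR-22-5p counts as that in the miR-22-5p share, and is not independent of it. The 5p arm made up 0.0479%, 0.0408% and 0.0409% of the miR-22 arm counts in Dicer1-ifKO replicates 1, 2 and 3, against 0.0362%, 0.0338% and 0.0369% in WT replicates 1, 2 and 3, without overlap. The mean log2 ratio of 3p over 5p was 11.18 ± 0.13 in Dicer1-ifKO and 11.45 ± 0.07 in WT (SD, n = 3 each), a difference of -0.27 (two-sided exact permutation p = 0.1, the smallest possible). Summed over libraries, 191 of the arm counts in Dicer1-ifKO and 182 in WT were 5p, which is 0.0430% (exact 95% binomial interval 0.0371% to 0.0496%) and 0.0357% (0.0307% to 0.0413%), and these intervals overlapped. They cover counting error only and leave out the spread between libraries, so their overlap is no test of the difference. Of the 120 hairpins, 20.8% had a lower and 11.7% a higher 3p over 5p ratio in Dicer1-ifKO without overlap. The median difference over the 120 was -0.11, with quartiles at -0.30 and 0.12, and 31 hairpins had a lower difference than miR-22. The hairpins on either side of it in the WT order showed log2 differences of 0.63 for miR-92b, -0.24 for miR-29a and -0.08 for miR-381.

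**Figure D3:**
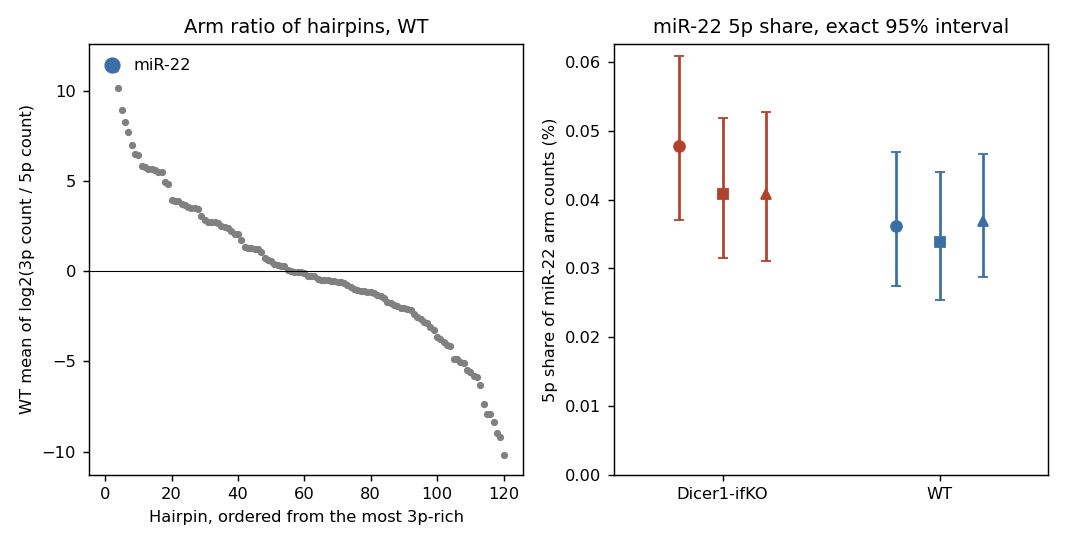
Left, WT mean of log2(3p count / 5p count) for 120 hairpins in descending order, with miR-22 marked in blue at 11.45. Right, the 5p share of miR-22 arm counts in each library, where the points lie at 0.0408% to 0.0479% in Dicer1-ifKO and 0.0338% to 0.0369% in WT, and the exact 95% binomial intervals (bars) of the genotypes overlap.

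The counts of the host gene were those of the miRNA. Mir22hg appears in the tables under an older symbol, 2210403K04Rik, with spans 75461539 to 75466676 and 75461644 to 75464029 on chromosome 11, and a span of Tlcd2 (75461715 to 75469663) also covers the hairpin. Nearly the same counts stood in the arm rows and in these spans, so reads were counted in several overlapping features. The longer Mir22hg span exceeded the sum of both arms by 0, -1 and 2 counts in Dicer1-ifKO replicates 1, 2 and 3, and by 1, 3 and 3 counts in WT replicates 1, 2 and 3. The net excess of the span over its arms was thus at most 3 counts, and these libraries hold no usable measure of Mir22hg apart from its miRNA. The log2 change of the span, -0.18 ± 0.13 (SE, edgeR adjusted p = 0.88), and that of the Tlcd2 span repeat the miR-22-3p row.

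The miRNA rows whose levels followed the arms most closely over the 6 libraries were found by the root mean square difference of log2 CPM deviations, among 391 other miRNA rows with a mean of at least 50 counts. For miR-22-3p these were miR-151-5p (0.0375), miR-30e-3p (0.0492), miR-30f (0.0498) and miR-30d-5p (0.0553), against a median of 0.200 over all rows compared. miR-30f lies opposite miR-30e-3p on the other strand and shares its reads, so they are a single result. All were highest in WT replicate 3, where miR-22-3p lay 0.29 above its own mean, and their log2 changes ran from -0.13 to -0.19. For miR-22-5p the closest rows were miR-126b-5p (0.0321) and the opposite-strand miR-126a-3p (0.0322), which share reads, then miR-27a-3p (0.0356) and miR-15a-5p (0.0635), against a median of 0.261. miR-126a is an endothelial miRNA. The closest rows of miR-22-5p, like that arm itself, were highest in Dicer1-ifKO replicate 1 and next highest in WT replicate 3. The 4 rows of each arm were chosen as the smallest of 391 differences, so their place below the median follows from the choice. miR-22-5p held only 55 to 70 counts per library, and its counting error was not taken into account here. A link of miR-22-5p to endothelial cells was not tested.

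Summed markers of cells other than neurons did not all move the same way between the genotypes. Those of microglia and leukocytes, oligodendrocytes and vessels took a larger share of the miRNA counts in Dicer1-ifKO. The 5 microglia and leukocyte names summed to 0.394% to 0.420% in Dicer1-ifKO libraries and 0.291% to 0.319% in WT libraries. The 4 oligodendrocyte names summed to 0.500% to 0.625% and 0.360% to 0.496%, and the 4 vessel names to 0.883% to 1.10% and 0.593% to 0.860%, in the same order of genotypes. Single names carried these sums. Of all 546 tested miRNA rows, 11.0% were higher in share in Dicer1-ifKO without overlap and 22.5% lower. miR-150-5p held 80.4% of the microglia and leukocyte counts and was higher without overlap, as were both miR-142 arms, while miR-146a-5p and miR-223-3p overlapped. miR-142-3p held few counts, 34, 19 and 17 in Dicer1-ifKO replicates 1, 2 and 3, against 16, 7 and 10 in WT replicates 1, 2 and 3. miR-338-3p held 75.8% of the oligodendrocyte counts, and each of the 4 names overlapped. miR-143-3p held 66.2% of the vessel counts and was higher without overlap, as was miR-126a-3p, while miR-126a-5p and miR-145a-5p overlapped. The choroid plexus sum went the other way, at 0.389% to 0.459% in Dicer1-ifKO and 0.499% to 0.605% in WT. miR-204-5p held 99.7% of it and was lower without overlap, while miR-211-5p overlapped. The red blood cell sums overlapped (0.0169% to 0.0191% in Dicer1-ifKO and 0.0144% to 0.0223% in WT). No marker row was called by edgeR's test over all features, where 6.59% of the tested miRNA rows were, and none of the matched rows was at 0. The part of these cells in the miR-22-5p share and in the miR-22 arm ratio was not tested.

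Genes of the miRNA pathway and reported targets of miR-22-3p were covered by few reads, since the libraries were made for small RNA. Of 10 pathway genes, 3 passed the count filter, Dgcr8 (a partner of Drosha, log2 change -0.33), Dicer1 (-0.24) and Ago4 (an Argonaute protein, -0.01). None was called, where 0.811% of all tested features were. Of 10 reported targets, 4 passed the filter and none was called. Among them, the log2 changes were 0.62 for Hdac4 and 0.60 for Hdac6, which encode histone deacetylase family members, and -0.18 for Esr1, the estrogen receptor. The Hdac4 span held 35 counts in all Dicer1-ifKO libraries and 23 in all WT libraries, so these fragments do not measure mRNA levels.

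**Figure D4:**
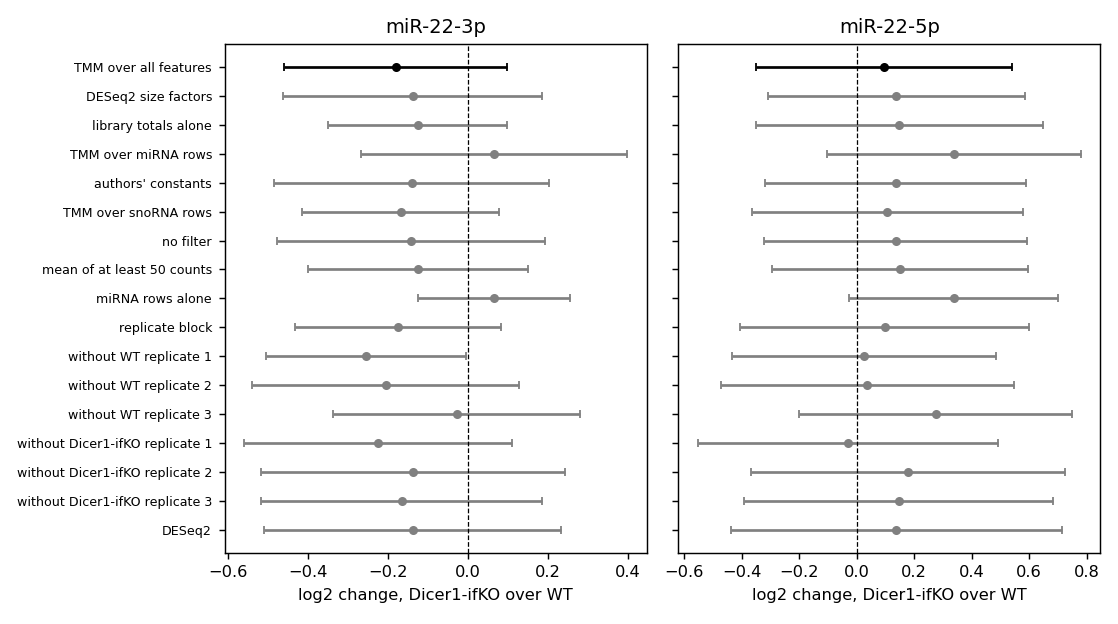
Log2 change of miR-22-3p (left) and miR-22-5p (right), Dicer1-ifKO over WT, with 95% intervals, in the fit over all features (black) and under each other setting (grey). The values run from -0.26 to 0.07 for miR-22-3p and from -0.03 to 0.34 for miR-22-5p, and none passed the test at an adjusted p of 0.05.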

How the data were processed

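The miR-22 arms and all gene lists were chosen with earlier results of these data known. The deposited files give whole-number read counts per feature, unscaled, and a normalized signal, which in these deposited values equals the counts times 1 constant per library. That signal was used only to recover the constants. The submitters' processing notes name, without roles, BWA, CASAVA 1.8.2, DESeq2, SAMtools 0.1.18 and the build GRCm38 (mm10). For the counter, the strand setting and the annotation release nothing is stated in the sources used here. Reads of the miR-22 hairpin were counted in several overlapping features. Per the labels' protocols, libraries followed the TruSeq small RNA protocol, and RNA of 3 mice was pooled for each, 9 mice per genotype, where the design text gives 12. p-values thus measure the spread between pools.

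Group and replicate came from the titles. Where rows of a gene were identical over the 6 libraries, 1 was kept (13139 removed). edgeR 4.0.16 in R 4.3.3 fitted all features: filterByExpr (minimum count 10), TMM, robust glmQLFit, two-sided glmQLFTest, and Benjamini-Hochberg over 6539 features. SE and intervals were derived from the F statistic. Before repeated rows were removed, feature counts summed to 55101387 to 77428956 per library, and CPM used the smaller totals left afterwards. Ratios and shares used exact permutation of libraries (scipy 1.17.1). The hairpin was folded with RNAfold 2.7.2. Log2 CPM used a prior count of 2. Libraries of a genotype differed by more than counting noise (chi-square over its degrees of freedom 22.0 to 65.3).

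Named were the arms, overlapping rows, the 2 miRNAs next above and below each arm in WT, seed sharers, miRNAs within 500 kb, the 4 rows most like each arm, and the hairpins next in arm ratio. The miRNAs beyond these in the 10 most abundant were added after their values were seen. Alternatives were other scalings, DESeq2 1.42.0, other filters, miRNA rows alone, a replicate block, other denominators and left-out libraries. The value of 1 listed target is not reported here.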

Additional observations from a re-analysis of the deposited data

How the results depend on the processing

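Neither arm passed the test under any alternative run. The miR-22-3p log2 change kept its sign except with TMM over miRNA rows (0.0654) and in the fit of miRNA rows alone (0.0654), and the Mir22hg span, the same reads, gave 0.0655 with TMM over miRNA rows. With each library left out, miR-22-3p ran from -0.26 to -0.03, the span from -0.26 to -0.03, and miR-22-5p from -0.0305 to 0.275, the value below 0 being that without Dicer1-ifKO replicate 1. The cause was not tested. The share differences ran from 0.0968 to 0.270 percentage points for miR-22-3p and from 0.000376 to 0.000595 for miR-22-5p, and the arm ratio difference from -0.31 to -0.20, over the left-out libraries. The other denominators, a pseudocount of 1 and summed counts kept the sign of these differences. miR-22 ranked 1 and not 2 by arm ratio with at least 50 counts in both arms. The number of miRNA rows called, 36, was 16 on library totals, 8 with TMM over miRNA rows, 47 in the fit of miRNA rows alone (36 lower and 11 higher), 3 with the replicate block, and 1 to 70 with a library left out (19, 1 and 8 when Dicer1-ifKO replicate 1, 2 or 3 was omitted, and 70, 13 and 14 when WT replicate 1, 2 or 3 was omitted).

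The replicate numbers do not pair the samples by any label, and same-numbered libraries did not all deviate together (r = -0.18, 0.075 and -0.16 for numbers 1, 2 and 3 over all tested features), nor did each library correlate best with its own number. With the replicate block, miR-22-3p and the span each had a log2 change of -0.17, miR-22-5p of 0.10, and the arm ratio differed by -0.27. The 55 to 70 counts of miR-22-5p per library limit every statement on that arm.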
